A study of Mus musculus with 24 samples.

Results

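Cathepsins are the proteases of the lysosome, and 10 of their genes were followed through lactation: Ctsa, Ctsb, Ctsc, Ctsd, Ctsf, Ctsh, Ctsk, Ctsl, Ctss and Ctsz. They were taken by symbol from a fixed list of members, and all 10 were found once among the 32544 symbols of the deposited table. The series measured polyadenylated RNA in the inguinal mammary glands of mice of 2 genotypes, labelled BL/6 C57 and BL/6 NZB and called C57 and NZB here. Each genotype was sampled in non-lactating mice and at lactation day 8, day 14 and day 21. The 8 groups hold 3 mice each, 24 in all. Names of this form are in use for conplastic mice, which join the nuclear genome of one strain to the mitochondrial DNA of another. Both labels share the BL/6 name, and no source used here gives age or litter size. The series concerns organelles under the load of lactation, and the comparisons below follow the 10 genes across stage and genotype.

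Cathepsins are made as inactive precursors, tagged with mannose 6-phosphate in the Golgi and carried to the lysosome, where the acid environment and other proteases release the active enzymes. Most are cysteine proteases of the papain family, while Ctsd is an aspartic protease and Ctsa a serine carboxypeptidase. In the mammary gland they are best known from involution, the regression that follows weaning, when lysosomal proteases take part in the death and clearance of milk-producing cells. Macrophages and other antigen-presenting cells are rich in several of them, and fibroblasts and osteoclasts make the collagen-degrading Ctsk.

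Reads assigned to genes are given per mouse as the mean of its 2 deposited columns, in units of 1000000. They were 7.03 to 15.88 in non-lactating glands and 14.81 to 24.25 in lactating glands. The lowest, C57 non-lactating mouse 2, had columns of 2.17 and 11.89. A set of 19 milk genes took 70.6% to 74.1% of the counts in the lactating groups, as group means, except in NZB glands on day 21, where they took 24.8% ± 6.19 (SD, n = 3). A level in counts per 1000000 reads (CPM) shares its total with these transcripts. Levels below are therefore on a milk-removed scale, on which CPM is taken over all genes but those 19, and values on the deposited scale are given beside them. C57 non-lactating mouse 3 carries an NZB genotype tag but a C57 title and was kept as C57. NZB non-lactating mice 2 and 3 were high in B cell markers, at 844 and 1822 summed CPM against 28.8 in mouse 1, and the 3 NZB non-lactating glands were low in luminal epithelial markers, at 55.2 to 324 against 592 to 1273 in C57. C57 mouse 2 of day 14 and C57 mouse 2 of day 21 were the closest pair of glands in the series, with a chi-square per gene of 4.33 against 10.29 for the next pair. In whole glands, fewer cells of a type and less RNA per cell cannot be told apart.

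Promoter sequences from RefSeq (GRCm38.p6, 250 bases before to 50 after a start) were matched for 8 of the 10 genes, with 9 promoters because Ctsa has a pair. Ctsb and Ctsh had no entry. The palindrome CACGTG, the core of the motif that lysosomal genes share and that the factor Tfeb binds, was found in 4 of these 9 promoters, those of Ctsa, Ctsd, Ctsf and Ctsl. It is held by 7.15% of all 32851 RefSeq promoters. The extended form TCACGTG, on either strand, lay in Ctsa and Ctsd, overlapping the same sites, against 3.77% of all promoters. The STAT motif TTCNNNGAA was found in Ctsc alone among the 9, against 8.3% of all promoters, and the same motif with 1 more base in its spacer was in none of them, against 6.95%. TCATGTG, searched on both strands, lay in Ctsa and Ctss, against 3.77% of all promoters. Ctsa and Ctsd each hold a pair of CACGTG sites. The windows below show all 6 CACGTG sites and the STAT match of Ctsc, the 1 gene that fell in NZB glands on day 21 on the milk-removed scale, with the motif in capitals and each written on its gene's strand.
Ctsa, chr2:164833751-164833776, plus strand: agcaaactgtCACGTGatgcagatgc
Ctsa, chr2:164833768-164833793, plus strand: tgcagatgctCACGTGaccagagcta
Ctsd, chr7:142388057-142388077, minus strand: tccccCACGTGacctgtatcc
Ctsd, chr7:142387910-142387935, minus strand: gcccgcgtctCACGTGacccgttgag
Ctsf, chr19:4855076-4855101, plus strand: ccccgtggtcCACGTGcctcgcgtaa
Ctsl, chr13:64370741-64370766, minus strand: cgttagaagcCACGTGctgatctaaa
Ctsc, chr7:88277841-88277865, plus strand: ctttggcgTTCCTTGAAaggcagag
The Ctsl match lay 236 to 231 bases before the start, the Ctsd matches 245 to 240 and 98 to 93 and the Ctsf match 79 to 74. One Ctsa match lay 12 to 7 bases before its start, and the other 5 to 10 bases after it. The 4 genes with CACGTG did not share one course over the stages, as the values below show. A match is a string of letters and says nothing of binding.

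The 10 genes lie on 7 mouse chromosomes (GRCm38, GENCODE M21). Ctsk (chr3:95499256-95509362, plus strand) and Ctss (chr3:95526786-95556403, plus strand) are close neighbours, Ctsl is at chr13:64359337-64370890 on the minus strand and Ctsc at chr7:88278085-88310888 on the plus strand. Per kilobase of transcript, Ctsb and Ctsd had the highest means of the 10 in all 8 groups. In NZB glands on day 21 the mean levels per kilobase, in milk-removed CPM, were 530.1 for Ctsb, 464 for Ctsd and 345 for Ctsl, followed by 80.7 for Ctss, 73.4 for Ctsh and 63.8 for Ctsa. Ctsc stood at 52.1, Ctsz at 43.8, Ctsf at 9.56 and Ctsk at 5.35. On day 21 in C57 glands Ctsl was at 57.2 per kilobase and Ctsc, at 146, came next after Ctsb and Ctsd. Together the 10 genes summed to 2918 ± 150 CPM (SD, n = 3) in C57 glands on day 21 and to 4861 ± 780 in NZB glands. The share of Ctsl in that sum was 5.41% in NZB glands on day 14 and 13.8% on day 21.

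**Figure D1:**
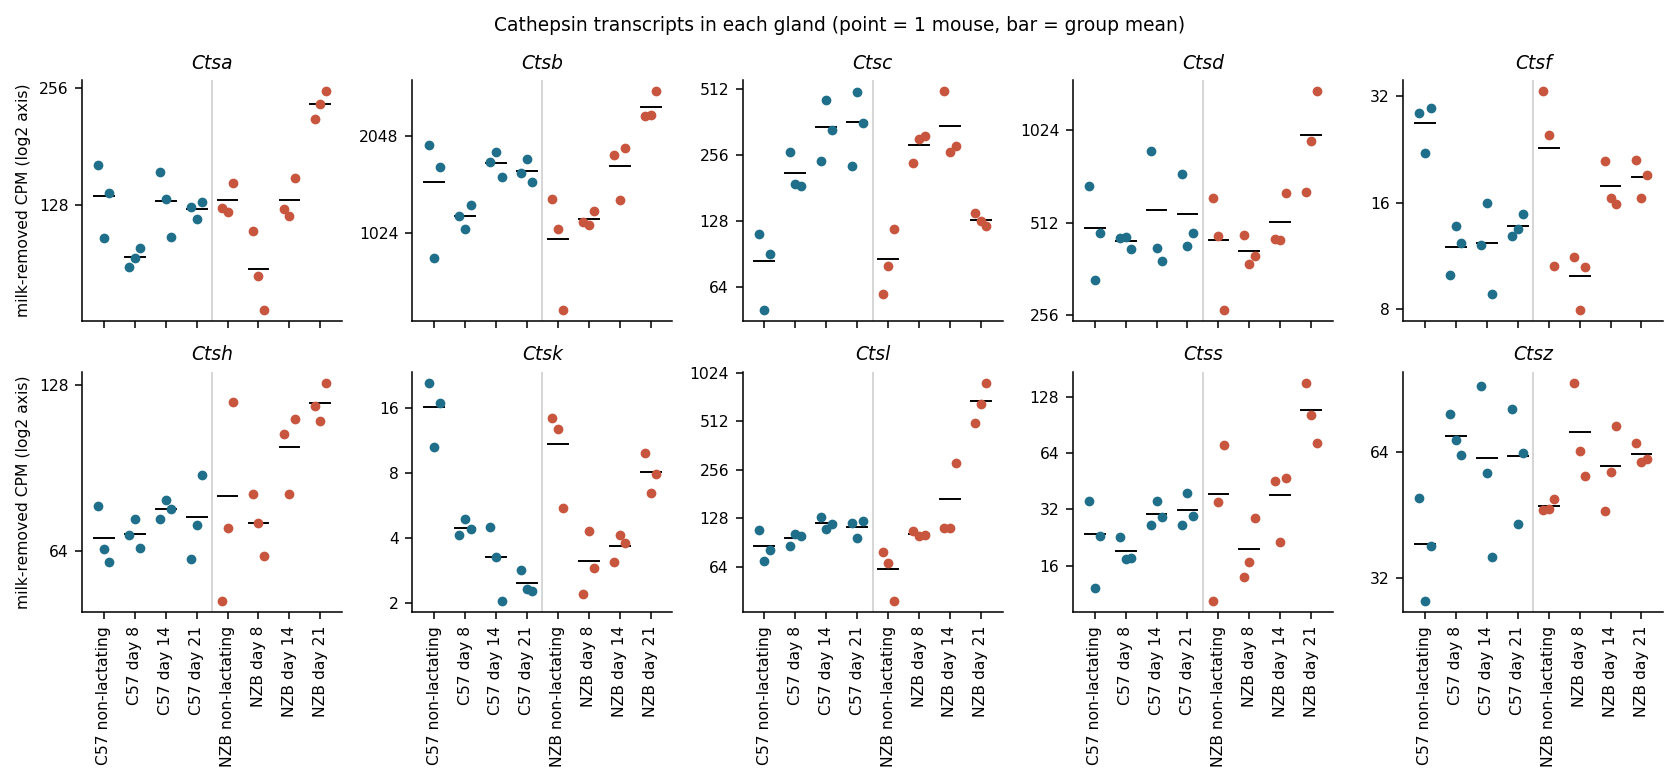
Milk-removed CPM of each cathepsin gene (log2 axis) in the 8 groups, with 1 point per mouse and a bar at the group mean. Ctsl in the 3 NZB mice of day 21 lies at 498 to 889, above all other glands, while Ctsc in the same mice lies at 122 to 139, below the day 8 and day 14 glands.

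The order of the 8 groups was not the same for all genes. Ctsl, an endopeptidase of wide substrate range, ran from 62.2 ± 20.9 CPM (SD, n = 3) in NZB non-lactating glands to 679 ± 197 in NZB glands on day 21, and of the 7 neighbouring pairs in that order only NZB day 14 and NZB day 21 did not overlap. Ctsb was likewise lowest in NZB non-lactating and highest in NZB day 21 glands, at 980.3 ± 360.1 and 2514 ± 256. Ctsa, Ctsd, Ctsh and Ctss also had their highest mean in NZB glands on day 21. Ctsf and Ctsk were highest in C57 non-lactating glands, at 26.8 ± 4.11 and 16.1 ± 5.27, Ctsz in NZB glands on day 8, at 71.2 ± 19.7, and Ctsc in C57 glands on day 21, at 363 ± 136. For Ctsd, Ctsh and Ctsz all 7 neighbouring pairs overlapped.

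The first comparison set day 8 of lactation against non-lactating glands. Relative to other non-milk transcripts Ctsc rose in both genotypes, Ctsz in C57 and Ctsl in NZB, while Ctsk, Ctsf and Ctsa fell in both; on the deposited scale Ctsz and Ctsl fell as well and Ctsc did not pass. In C57, 2 of the 10 genes rose and 3 fell, where 12.6% of the 16899 genes tested rose and 30.5% fell (limma, Benjamini-Hochberg adjusted p under 0.05). In NZB also 2 rose and 3 fell, where 14.4% and 31.8% of all genes did. The median difference over the 10 genes was −0.13 (log2) in C57 and −0.06 in NZB, and over all genes −0.30 in both.

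Ctsc, also called dipeptidyl peptidase 1, is the activator of granule serine proteases in immune cells. It stood at 112, 50.3 and 91.0 CPM in C57 non-lactating mice 1, 2 and 3 and at 264, 190.2 and 186 on day 8. In NZB it stood at 59.7, 80.2 and 118 and at 236, 305 and 314. Every day 8 gland lay above every non-lactating gland of its genotype. On the log2(CPM + 1) scale, on which all differences and their standard errors are given, the change was 1.38 ± 0.32 (SE) in C57 (adjusted p = 0.00119) and 1.76 ± 0.32 in NZB (adjusted p = 0.000105). On the deposited scale, where milk transcripts stay in the total, it was −0.54 ± 0.29 and −0.14 ± 0.29 with adjusted p = 0.0789 and 0.636.

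Ctsk, the collagenase of osteoclasts and fibroblasts, was at 21.0, 10.6 and 16.8 CPM in C57 non-lactating glands and at 4.15, 4.89 and 4.39 on day 8. The NZB values were 14.4, 12.8 and 5.52 and 2.22, 4.33 and 2.90. The groups did not overlap in either genotype, and Ctsk changed by −1.60 ± 0.32 (adjusted p = 0.000267) in C57 and −1.46 ± 0.32 (adjusted p = 0.00067) in NZB. Ctsf, a less studied cysteine cathepsin, went from 28.7, 22.1 and 29.5 to 9.998, 13.8 and 12.3 in C57 and from 33.0, 24.9 and 10.6 to 11.3, 7.97 and 10.5 in NZB. NZB non-lactating mouse 3 lay among the day 8 values. The differences were −1.09 ± 0.29 (adjusted p = 0.00373) and −1.005 ± 0.29 (adjusted p = 0.00663), and without NZB non-lactating mouse 1 the NZB value was −0.68 (adjusted p = 0.0561). Ctsa, which also shields beta-galactosidase and neuraminidase in a lysosomal complex, changed by −0.50 ± 0.18 (adjusted p = 0.0289) in C57 and by −0.61 ± 0.18 (adjusted p = 0.00852) in NZB. The Ctsa call in C57 was lost without day 8 mouse 1 or 2 or non-lactating mouse 1 or 3 (−0.50 to −0.36, adjusted p 0.0657 to 0.161), and that in NZB without day 8 mouse 3 (−0.44, adjusted p = 0.0704). With trimmed mean scaling, which brought the median of all genes to −0.03 and −0.02, Ctsa and Ctsf were not called in either genotype (Ctsa −0.20 and −0.31, Ctsf −0.76 and −0.69). Over all genes that scaling gave 3214 higher and 3612 lower in C57, where the milk-removed scale gave 2132 and 5158, and 3494 and 3716 in NZB, where it gave 2440 and 5366.

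Ctsz, a carboxypeptidase, stood at 49.6, 28.2 and 38.1 CPM in C57 non-lactating glands and at 78.7, 68.2 and 62.7 on day 8. The groups did not overlap and the difference was 0.87 ± 0.28 (adjusted p = 0.0145). It was 0.67 to 0.78 (adjusted p 0.0567 to 0.089) without day 8 mouse 1 or non-lactating mouse 2. In NZB the Ctsz difference was 0.54 ± 0.28 (adjusted p = 0.117), and it passed with trimmed mean scaling (0.81, adjusted p = 0.0273). Ctsl stood at 79.6, 68.0 and 39.1 CPM in NZB non-lactating glands and at 107, 99.2 and 100.3 on day 8, a difference of 0.77 ± 0.29 (adjusted p = 0.0356) with no overlap. That call was lost without any 1 of the day 8 mice or without non-lactating mouse 3 (0.47 to 0.79, adjusted p 0.065 to 0.218). Without the lymphocyte-rich mice 2 and 3, which leaves 1 non-lactating mouse, the Ctsl difference was 0.36. In C57 the Ctsl difference was 0.17 ± 0.29 (adjusted p = 0.684). Without NZB non-lactating mice 2 and 3 the Ctsa difference in NZB was −0.54, again against 1 mouse. Fitted on the 2 NZB groups alone, Ctsa, Ctsf and Ctsl kept their values but were not called (adjusted p = 0.0645, 0.0952 and 0.0628). Over all genes that fit gave 1917 higher and 3697 lower, where the fit of all groups gave 2440 and 5366. Ctsl was also not called with group variance weights (adjusted p = 0.0844) or with a shorter list of 8 milk genes removed (0.59, adjusted p = 0.103). Ctsb, Ctsd, Ctsh and Ctss did not pass the test in either genotype, with differences from −0.63 for Ctss in NZB to 0.28 for Ctsb in NZB. Ctss passed in NZB without non-lactating mouse 1 (−1.36, adjusted p = 0.00865), whose level of 10.3 CPM was the lowest of the 3.

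On the deposited scale most of the genes read lower. In C57 9 of the 10 genes fell and none rose, where 88.8% of 16138 genes fell and 2.17% rose. In NZB 9 fell and none rose, where 88.6% fell and 2.98% rose. The median of all genes was −1.80 in both genotypes on that scale. Ctsc, Ctsl and Ctsz had values of opposite sign on the deposited and milk-removed scales in both genotypes, Ctsh in C57 alone and Ctsb in NZB alone. Ctsc was the 1 of the 10 genes that did not pass the test on the deposited scale.

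**Figure D2:**
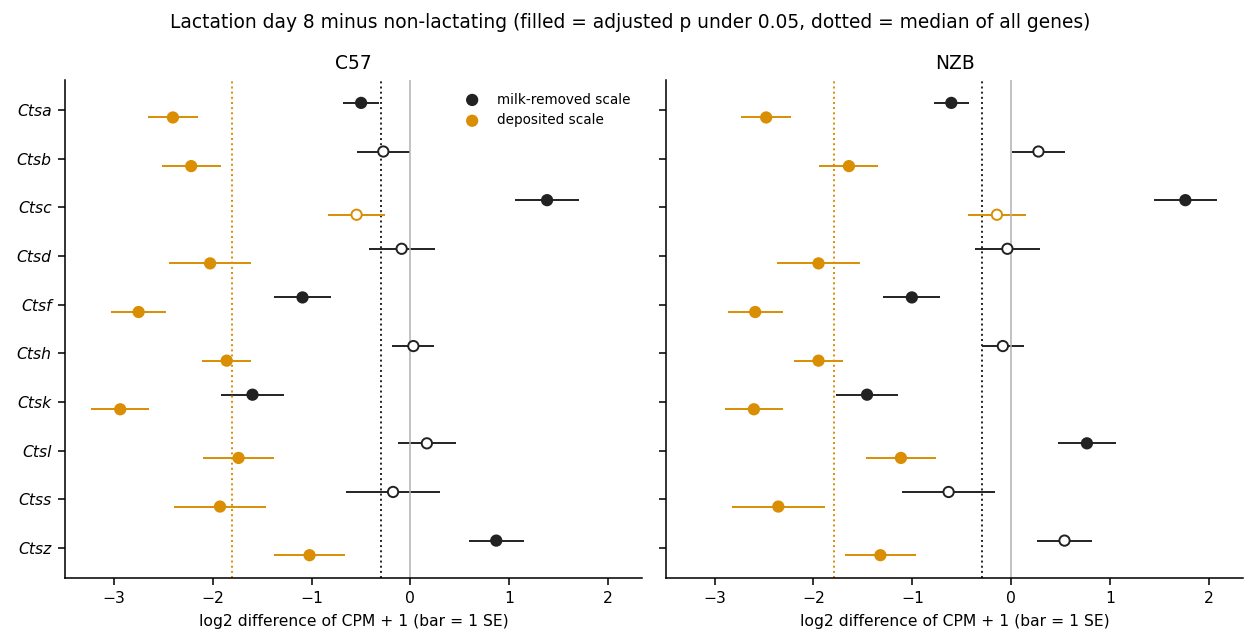
Log2 difference of each gene, day 8 minus non-lactating, in C57 and NZB, on the milk-removed (dark) and deposited (orange) scales, with bars of 1 SE, filled points for adjusted p under 0.05 and dotted lines at the median of all genes. Ctsc lies to the right of the dotted line on both scales and in both genotypes, and Ctsk to its left.

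Markers of other cells moved in the same comparison, in which 30.5% of all genes fell in C57 and 31.8% in NZB. Summed fibroblast markers were at 4061 to 8089 CPM in C57 non-lactating glands and 535 to 756 on day 8, and all 10 of them fell. In NZB they were at 2154 to 7809 and 480.2 to 680.2, and 8 of 10 fell. Of 15 macrophage markers 11 fell in C57 and none rose, with summed levels of 351 to 1012 and 232 to 256. In NZB 10 fell and 1 rose, with 471 to 581 in non-lactating and 233 to 274 in day 8 glands. Of 10 white adipocyte markers 9 fell in each genotype. Luminal epithelial markers summed to 1471 to 1549 on day 8 in C57 and 1775 to 1877 in NZB, above the non-lactating ranges given earlier. None of the markers of these 3 lists was at 0 in all mice of a group. The part of these cells in the changes of Ctsk, Ctsf, Ctsa and Ctsc was not tested.

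Between days 8 and 14 none of the 10 genes passed the test in either genotype. Over all genes 2.12% did in C57 and 0.467% in NZB. With an unadjusted p under 0.05 there were 1 member in C57 and 3 in NZB. Among the 16899 genes tested, 2407 and 2023 had such a p. The largest change was that of Ctss in NZB, 0.90 ± 0.47 (adjusted p = 0.477). Ctsa was higher on day 14 by 0.46 ± 0.18 in C57 and 0.60 ± 0.18 in NZB without passing (adjusted p = 0.21 and 0.154). From day 14 to day 21 none passed in C57, where 0.0% of all genes passed. No member had an unadjusted p under 0.05 in that comparison, where 216 of 16899 genes did. There the 10 differences ran from −0.26 for Ctsk to 0.18 for Ctsf, with standard errors of 0.18 to 0.47. Genotypes were compared at each stage as well. No member passed in non-lactating glands (5.04% of all genes did), on day 8 (0.0355%) or on day 14 (0.0355%). An unadjusted p under 0.05 was found for 1 member in non-lactating glands, where 3193 of 16899 genes had one. On days 8 and 14 no member had one, where 957 and 559 genes did. In non-lactating glands the differences, NZB minus C57, ran from −0.58 for Ctsb to 0.44 for Ctss.

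NZB glands on day 21 stood apart. Against NZB day 14, Ctsl, Ctss, Ctsk and Ctsa rose and Ctsc fell, so that 4 of the 10 genes rose, where 15.7% of all genes did, and 1 fell, where 5.73% did. Against C57 glands of the same day Ctsl, Ctss, Ctsk, Ctsa and Ctsh were higher and Ctsc lower, 5 and 1 of 10, where 18.7% and 5.6% of all genes were. The median difference of the 10 genes was 0.72 from day 14 to day 21 and 0.76 between genotypes, and that of all genes was 0.27 and 0.29. Both comparisons use the same 3 NZB glands of day 21. On the deposited scale 9 genes rose from day 14 and none fell, where 85.8% of all genes rose and 0.917% fell, and 9 were higher than in C57 and none lower, where 85.2% and 1.0% of all genes were. The all-gene medians there were 1.36 and 1.35.

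Ctsl moved most. Its milk-removed CPM was 111, 111 and 284 in NZB mice 1, 2 and 3 of day 14, 498, 651 and 889 on day 21, and 119.5, 96.0 and 122 in C57 mice of day 21. All 3 NZB glands of day 21 lay above the other 21 glands, and the highest of those others was NZB day 14 mouse 3. The difference was 2.11 ± 0.29 from day 14 (adjusted p = 3.74e-05) and 2.55 ± 0.29 from C57 (adjusted p = 2.39e-06). Among 16899 genes its increase from day 14 ranked 152 and its excess over C57 ranked 116. Ctsl passed the test in both comparisons under every setting that was run, with 3.51 and 3.90 on the deposited scale and 1.86 and 2.27 with trimmed mean scaling. In deposited CPM its NZB values were 28.3, 29.7 and 90.8 on day 14 and 346, 533 and 659.7 on day 21. Less the median of all genes, the change from day 14 was 1.84, 2.16 and 1.80 on the 3 scales. An antisense transcript, Gm47123, covers 26.8% of the exon bases of Ctsl in GENCODE, and a processed pseudogene on the same strand 6.09%. Whether reads were counted by strand is not given in the sources used here.

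Ctss, which trims the invariant chain of MHC class II in antigen-presenting cells, stood at 45.6, 21.4 and 47.4 CPM on day 14 and 153, 102 and 72.7 on day 21 in NZB, against 26.5, 39.3 and 29.4 in C57 on day 21. The groups did not overlap, and mouse 1 of day 21 was the highest. It rose by 1.51 ± 0.47 from day 14 (adjusted p = 0.0258) and was 1.71 ± 0.47 above C57 (adjusted p = 0.0113). Without NZB day 14 mouse 2 or day 21 mouse 1 or 2 the first call was lost (1.15 to 1.53, adjusted p 0.0626 to 0.151), and without NZB day 21 mouse 1 the second (1.43, adjusted p = 0.061). Ctsk stood at 3.12, 4.15 and 3.80 on day 14, 9.89, 6.47 and 7.92 on day 21 and 2.84, 2.32 and 2.27 in C57 on day 21, again without overlap. Its differences were 0.94 ± 0.32 (adjusted p = 0.0363) and 1.37 ± 0.32 (adjusted p = 0.00313). The change from day 14 was lost without any 1 of the NZB day 14 mice or day 21 mouse 1 or 3 (0.81 to 1.02, adjusted p 0.0673 to 0.129), while the excess over C57 was called without each mouse in turn. With no filter on low values neither Ctss nor Ctsk passed from day 14 (adjusted p = 0.0565 and 0.0588), and Ctsk missed with limma voom (1.11, adjusted p = 0.0691).

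Ctsa stood at 125, 119.8 and 150.0 CPM on day 14 and 214, 232 and 251 on day 21 in NZB, against 126, 118 and 130.2 in C57 on day 21. Its 3 NZB glands of day 21 lay above all others of the series. The differences were 0.82 ± 0.18 (adjusted p = 0.00278) and 0.89 ± 0.18 (adjusted p = 0.00107). With trimmed mean scaling the change from day 14 was 0.57 for Ctsa, 1.24 for Ctss and 0.60 for Ctsk, with adjusted p = 0.0604, 0.0504 and 0.177, so that on this scale Ctsl alone rose and Ctsc alone fell. All 3 stayed above C57 on that scale (0.62, 1.41 and 0.92, adjusted p = 0.0394, 0.0247 and 0.0355). Over all genes trimmed mean scaling gave 1297 higher and 1527 lower from day 14, the milk-removed scale 2657 and 969, and the deposited scale 13844 and 148. Between genotypes the 3 scales gave 1616 and 1581, 3164 and 946, and 13752 and 162.

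Ctsh, an aminopeptidase, stood at 117, 109.8 and 129 CPM in NZB on day 21 and 61.7, 71.2 and 87.6 in C57, a difference of 0.69 ± 0.21 (adjusted p = 0.0206) with no overlap. That call was lost without C57 mouse 1 or 2 or NZB mouse 3 (0.58 to 0.68, adjusted p 0.0624 to 0.0735) and with trimmed mean scaling (0.42, adjusted p = 0.132). Its NZB day 14 values, 104, 80.9 and 111, reached into those of day 21, and the change was 0.27 ± 0.21 (adjusted p = 0.383). The abundant pair Ctsb and Ctsd did not pass either test. Ctsb, known with Ctsl from the lysosomal cell death of involution, was at 1789, 1290.4 and 1877 on day 14, 2362, 2371 and 2809.6 on day 21 and 1566, 1728 and 1466 in C57. These groups did not overlap, yet the differences were 0.62 ± 0.27 (adjusted p = 0.102) and 0.66 ± 0.27 (adjusted p = 0.0758). Ctsd, at 646, 947 and 1370.1 in NZB on day 21 and 737, 429 and 475 in C57, had overlapping groups, with C57 mouse 1 above NZB mouse 1. Its differences were 0.89 ± 0.33 (adjusted p = 0.0587) and 0.83 ± 0.33 (adjusted p = 0.0734). Ctsd passed from day 14 with group variance weights (adjusted p = 0.0281), without NZB day 14 mouse 3 or day 21 mouse 1 (1.06 to 1.16, adjusted p 0.0298 to 0.0497) and, between genotypes, without C57 mouse 1 or NZB mouse 1 of day 21 (1.06 to 1.10, adjusted p 0.0345 to 0.0348). With only 8 milk genes removed both genes passed both tests, Ctsb at 0.79 and 0.82 and Ctsd at 1.06 and 0.98 (adjusted p 0.0218 to 0.0303). Over all genes that setting gave 4349 higher and 786 lower from day 14, where the reported fit gave 2657 and 969. Between genotypes it gave 4677 and 767, where the reported fit gave 3164 and 946. The all-gene medians were 0.40 and 0.42 with 8 milk genes removed, and 0.27 and 0.29 in the reported fit. Gm49369, a gene on the same strand, shares 34.4% of the exon bases of Ctsd. Genes on the other strand share 12.8% of those of Ctsb, 10.5% and 6.87% of those of Ctsa and 0.694% of those of Ctsz. Ctsf changed by 0.09 ± 0.29 and Ctsz by 0.12 ± 0.28 from day 14, and neither passed.

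Ctsc went the other way. It stood at 502, 265 and 282 CPM in NZB on day 14, 139, 128 and 122 on day 21 and 229, 501 and 360.3 in C57 on day 21. The day 21 NZB glands lay within 122 to 139, below every other lactating gland, and above the non-lactating NZB range of 59.7 to 118. The differences were −1.36 ± 0.32 (adjusted p = 0.00461) and −1.41 ± 0.32 (adjusted p = 0.0028), called without each mouse in turn and with trimmed mean scaling (−1.60 and −1.67). Ctsc was level on the deposited scale, at 128, 70.6 and 90.2 CPM on day 14 and 97.0, 105 and 90.5 on day 21, with differences of 0.06 ± 0.29 and −0.03 ± 0.29 (adjusted p = 0.847 and 0.923). The median gene rose on that scale, and less that median the change of Ctsc from day 14 was −1.63 on the milk-removed, −1.30 on the deposited and −1.65 on the trimmed mean scale. Its fall is thus a fall relative to other transcripts, and on the scale of all counts no fall was measured.

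**Figure D3:**
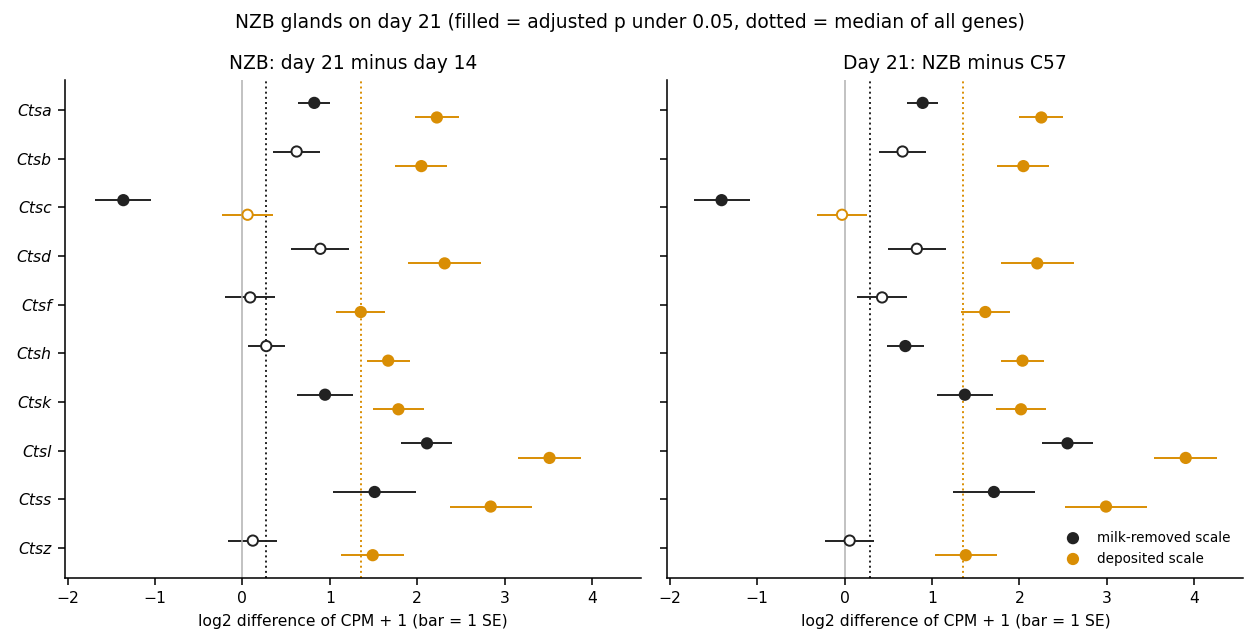
Log2 difference of each gene for NZB day 21 minus day 14 (left) and NZB minus C57 on day 21 (right), on the milk-removed (dark) and deposited (orange) scales, with bars of 1 SE, filled points for adjusted p under 0.05 and dotted lines at the median of all genes. Ctsl is farthest to the right in both panels and Ctsc farthest to the left, below the all-gene median on both scales.

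Whether the genotypes differed in their change from day 14 to day 21 was tested as an interaction. Ctsl passed with 2.20 ± 0.41 (adjusted p = 0.00313) and Ctsa with 0.88 ± 0.26 (adjusted p = 0.0433), so that 2 of 10 genes were higher, where 3.83% of all genes were, and none was lower, where 2.24% were. The Ctsa call was lost in 8 of the 12 fits that left out 1 mouse, those without C57 day 14 mouse 1 or 2, C57 day 21 mouse 2 or 3, NZB day 14 mouse 1 or 2, or NZB day 21 mouse 2 or 3 (0.75 to 0.91, adjusted p 0.0655 to 0.127), and with trimmed mean scaling (0.61, adjusted p = 0.248). Ctsc missed the threshold with −1.42 ± 0.45 (adjusted p = 0.0641), and passed without C57 day 14 mouse 2 or C57 day 21 mouse 1 (−1.71 to −1.65, adjusted p 0.02 to 0.0402). It also passed with trimmed mean scaling (−1.67, adjusted p = 0.0445) and with group variance weights (−1.42, adjusted p = 0.0494). For Ctss and Ctsk the interaction was 1.46 ± 0.67 and 1.20 ± 0.45 (adjusted p = 0.193 and 0.109), so a difference between the genotypes in these changes was not shown. On the deposited scale 9 genes passed, all higher, where 74.5% of all genes were higher and 0.527% lower. Trimmed mean scaling gave 274 genes higher and 569 lower in the interaction, and the milk-removed scale 647 and 379.

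NZB glands of day 21 were also set against non-lactating NZB glands, to ask how far each gene lay from its level outside lactation. Ctsl, Ctss, Ctsb, Ctsd, Ctsa and Ctsh were higher and none was lower, 6 of 10, where 16.6% of all genes were higher and 15.1% lower. Ctsl led with 3.45 ± 0.29 (adjusted p = 9.06e-09), followed by Ctss with 1.78 ± 0.47 (adjusted p = 0.00598), Ctsb with 1.43 ± 0.27 (adjusted p = 0.0003) and Ctsd with 1.15 ± 0.33 (adjusted p = 0.0106). Ctsa was higher by 0.82 ± 0.18 (adjusted p = 0.00129) and Ctsh by 0.64 ± 0.21 (adjusted p = 0.0254), while Ctsk, with −0.31 ± 0.32 (adjusted p = 0.495), and Ctsf, with −0.13 ± 0.29 (adjusted p = 0.775), did not pass. The Ctsd call was lost without NZB day 21 mouse 3 or non-lactating mouse 3 (0.82 to 0.88, adjusted p 0.0704 to 0.0821). That of Ctsh was lost without day 21 mouse 3 or non-lactating mouse 1 or 2 (0.37 to 0.59, adjusted p 0.0828 to 0.177). That of Ctss was lost without non-lactating mouse 1 (1.06, adjusted p = 0.0507). Without the lymphocyte-rich mice, which leaves 1 non-lactating mouse, the Ctsd difference was 0.61. Fitted on the 2 groups alone, Ctsd, Ctsh and Ctss were not called (adjusted p = 0.0928, 0.195 and 0.0973). Over all genes that fit gave 1754 higher and 1125 lower, where the fit of all groups gave 2801 and 2545. Ctsc, not called at 0.64, passed without non-lactating mouse 3 (0.90, adjusted p = 0.0473). With milk transcripts in the total 3 genes were higher, Ctsl by 3.06, Ctss by 1.39 and Ctsb by 1.04, where 9.84% of all genes were higher and 31.8% lower.

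Macrophage markers were higher in the glands in which Ctsl, Ctss and Ctsa were high. Their summed level was 1391 to 2000.4 CPM in NZB on day 21, 279 to 1005 on day 14 and 295 to 384 in C57 on day 21, and 11 of 15 markers rose from day 14 in NZB and none fell, where 15.7% of all genes rose. The other marker counts here are for that comparison as well. NZB day 14 mouse 3, the gland with the raised Ctsl, had 1005 where mice 1 and 2 had 354 and 279. None of the 15 markers was at 0 in all mice of a group. Fibroblast markers summed to 972 to 2271 in NZB on day 21, 711 to 929 on day 14 and 510.1 to 706 in C57, with 4 of 10 higher than on day 14. Luminal epithelial markers were at 2048 to 2700.4 in NZB on day 21 and 1689 to 2019 on day 14, with 4 of 8 higher. Of 10 white adipocyte markers 6 rose from day 14. Skeletal muscle markers reached 262 and 929 in NZB day 21 mice 1 and 2 and 6.77 in mouse 3, whose Ctsl was the highest of all. The part of these cells in the cathepsin differences was not tested.

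As a description over the 24 glands, which share library depth and milk content with their groups, Ctsa followed the macrophage sum with r = 0.91, and Ctsl and Ctss each with r = 0.72. Ctsk followed the fibroblast sum with r = 0.94 and Ctsf with r = 0.82, and Ctsc ran against it with r = −0.85. The signs were the same for other stromal sums. With endothelial markers r was 0.79 for Ctsk, 0.61 for Ctsf and −0.80 for Ctsc. With white adipocyte markers it was 0.72, 0.64 and −0.64. The relation of Ctsl to the macrophage sum was not one line. C57 non-lactating mouse 1 had a macrophage sum of 1012 with Ctsl at 109 CPM, and NZB day 14 mouse 3 had nearly the same sum with Ctsl at 284.

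**Figure D4:**
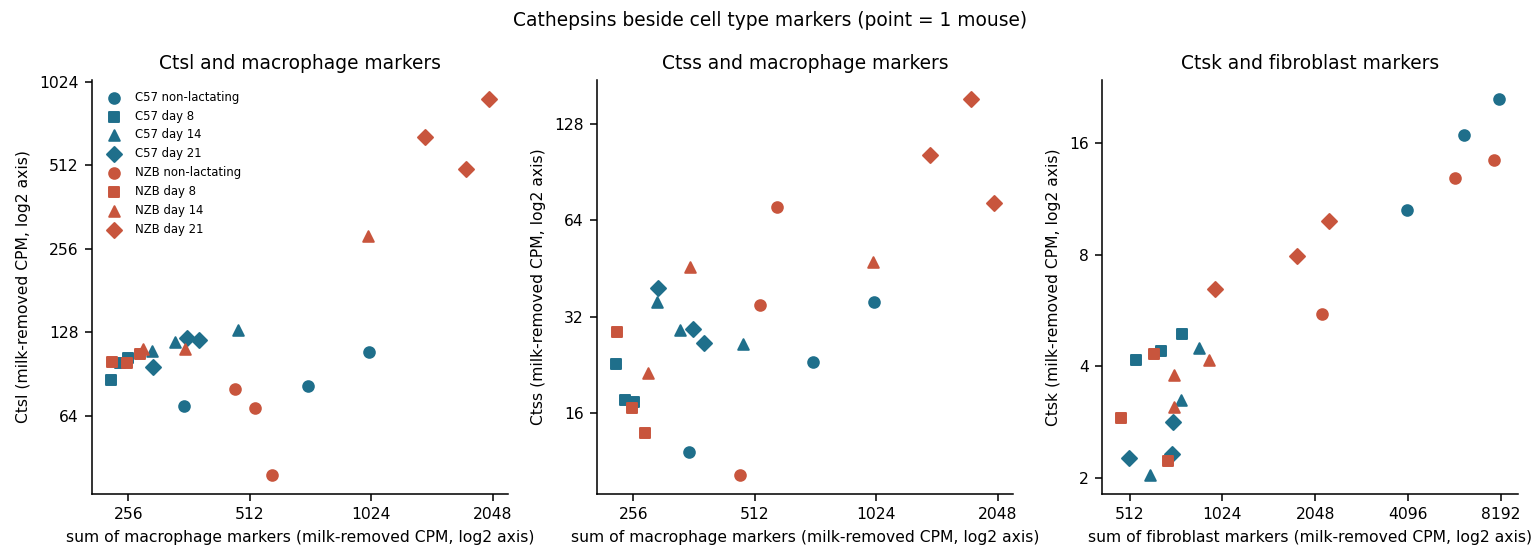
Ctsl and Ctss against the summed macrophage markers and Ctsk against the summed fibroblast markers (milk-removed CPM, log2 axes), with 1 point per mouse, colour for genotype and shape for stage. Ctsk correlates with the fibroblast sum over the 24 mice (r = 0.94), while Ctsl in non-lactating glands lies below lactating glands with a like macrophage sum.

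Correlations among the 10 genes over the 24 glands are given with no test. Ctsb, Ctsd, Ctsl and Ctsa correlated with one another at 0.65 to 0.81, and Ctss and Ctsh at 0.81. Ctsa also correlated with Ctss at 0.72 and Ctsh at 0.68, and Ctsl with Ctss at 0.63 and Ctsh at 0.62. Ctsf and Ctsk correlated at 0.79, and Ctsc ran against both, at −0.61 with Ctsf and −0.85 with Ctsk. Ctsz had no r above 0.41 with any other member.

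**Figure D5:**
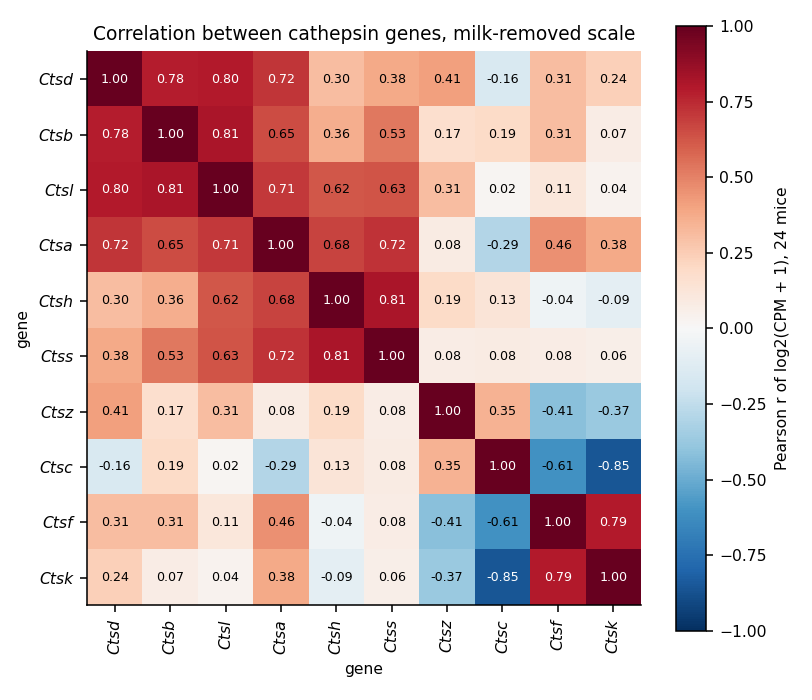
Pearson r of log2(CPM + 1) on the milk-removed scale between each pair of the 10 genes over 24 mice. Ctsd, Ctsb, Ctsl and Ctsa correlate at 0.65 to 0.81, Ctsh and Ctss at 0.81, and Ctsc is opposed to Ctsk at −0.85. These sets are not separate, as Ctsa lies at 0.72 with Ctss and 0.68 with Ctsh.

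The genes most like each member, out of 14822 compared over the 24 glands, differed from member to member. Ctss was most like Mpeg1 (r = 0.96), a macrophage perforin, then Cybb (0.92), the oxidase of phagocytes, and Ccl3 (0.87), a chemokine. Ctsk was most like Mmp2 (0.97), a gelatinase of stromal cells, then Enpep (0.96) and Igsf10 (0.95). Ctsl was most like Cyp2d10, Fth1, the ferritin heavy chain, and Gda (each 0.94), and Ctsd like Pgd (0.89), Srxn1 (0.87) and Ftl1 (0.87), the ferritin light chain. Ctsc was most like Cept1 (0.94), Pthlh (0.94), the parathyroid hormone-like hormone that the lactating gland secretes, and Slc38a2 (0.93), an amino acid transporter. Ctsb was most like Cd81 (0.91), Rab11a (0.87) and Nckap1 (0.85), and Ctsa like Sirpa (0.93), Actg1 (0.90) and Ywhah (0.89). Ctsf was most like Bcap31 (0.92), Fzd1 (0.90) and Atp9a (0.89), and Ctsh like Iqgap1 (0.88), Sesn3 (0.86) and Pip5k1c (0.85). The nearest gene of Ctsz, Orm1, reached only 0.75, followed by Orm2 (0.74) and Cntnap3 (0.73).

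Other genes of the pathway were taken from lists chosen by function, and their counts stand beside 15.7% of all genes that rose and 5.73% that fell from day 14 to day 21 in NZB. Of 13 further cathepsin genes 5 were abundant enough to test. From day 14 to day 21 in NZB, Cts8 rose by 1.26 ± 0.32 (adjusted p = 0.00735) and Ctso by 0.94 ± 0.26 (adjusted p = 0.0125), from 1.30 to 4.43 and from 7.76 to 15.7 CPM as means, and none fell. Cts8 belongs to a cluster of related placental cathepsins, so its counts are uncertain. Of 4 cystatins and stefins tested, the inhibitors of cysteine cathepsins, 1 rose and none fell. It was Cstb, the cytosolic stefin B, with 1.48 ± 0.27 from day 14 (adjusted p = 0.000635) and 1.81 ± 0.27 over C57 (adjusted p = 6.32e-05). Cst3, the secreted cystatin C and the most abundant of the 4, changed by −0.16 ± 0.23 (adjusted p = 0.646). The median difference was 0.22 over the 5 cathepsins and −0.16 over the 4 inhibitors.

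Of 11 genes of mannose phosphate sorting, which delivers the precursors to lysosomes, 2 rose and 2 fell in NZB from day 14 to day 21. Gnptab, a subunit of the enzyme that makes the tag, rose by 0.46 ± 0.15 (adjusted p = 0.0305), and its partner subunit Gnptg fell, at −0.89 ± 0.24 (adjusted p = 0.0111). Sort1, the sorting receptor sortilin, fell, at −0.91 ± 0.26 (adjusted p = 0.0152), and Lrp1, an endocytic receptor that can take up secreted cathepsins, rose by 1.21 ± 0.38 (adjusted p = 0.025). Neither mannose phosphate receptor passed, with 0.32 ± 0.17 for M6pr and −0.30 ± 0.22 for Igf2r. Of 17 processing and partner genes 5 rose and 3 fell. Lgmn, the asparaginyl endopeptidase that processes cathepsin precursors, rose by 1.43 ± 0.29 (adjusted p = 0.00157), and the membrane protein Lamp2 by 1.16 ± 0.20 (adjusted p = 0.000327). Hexa (a hexosaminidase subunit), Tpp1 (a peptidase) and Laptm4a rose by 1.10, 0.55 and 0.68. Among those that fell, the sulfatase Galns was at −1.36 ± 0.27 (adjusted p = 0.00111) and the glucuronidase Gusb at −0.63. Gnptg, Sort1, Galns and Gusb had values above 0 on the deposited scale, 0.42 for Gnptg, 0.51 for Sort1, 0.03 for Galns and 0.77 for Gusb. Against C57 on day 21, where 18.7% of all genes were higher and 5.6% lower, 8 of the 17 were higher, among them Cd74, the invariant chain that Ctss trims, by 1.17 and Psap by 0.74, and 2 were lower, and of the 11 sorting genes 1 was higher and 1 lower. Psap, the most abundant of the 17, changed by 0.45 ± 0.21 (adjusted p = 0.122). The median difference from day 14 on the milk-removed scale was 0.45 for the 17 and 0.03 for the 11, against 0.27 for all genes.

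Of 7 regulators 1 rose and 1 fell from day 14 to day 21 in NZB, where 15.7% and 5.73% of all genes did, so the count is no result about the list. Tfec, a relative of Tfeb found in myeloid cells, rose by 0.96 ± 0.33 (adjusted p = 0.0431) from 0.986 CPM, and Tfe3, another relative, fell, at −0.47 ± 0.14 (adjusted p = 0.0168), with 0.93 on the deposited scale. Tfeb itself changed by −0.47 ± 0.25 (adjusted p = 0.192). Stat3, the transcription factor known to raise Ctsb and Ctsl in involution and the most abundant of the list, changed by 0.30 ± 0.24 (adjusted p = 0.39), and was 1.56 ± 0.24 above its non-lactating level (adjusted p = 3.02e-05). These are transcript levels, and phosphorylation of Stat3 and the place of Tfeb in the cell were not measured.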

How the data were processed

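The glands were frozen before RNA extraction, per the labels. Builds named in the submitters' processing notes are GRCm38 and mm10, while aligner, counting tool and strand setting are not given in the sources used. The values the authors deposited are on a log10 scale and fit log10(CPM + 1), with 48 columns, 2 per mouse. Whole reads were recovered within 0.05 for 100% of the values checked, 17151 to 19887 per column. The highest counts of each column were not checked, since their printed decimals cannot show single reads. The 2 columns of a mouse differed in total by up to 0.448%, and by 81.7% in C57 non-lactating mouse 2. They were averaged in CPM as 1 replicate. Symbols turned into dates (27) stayed in the totals and were not tested.

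A gene entered the tests if 3 or more samples had over 1 CPM. The test was limma 3.58.1 in R 4.3.3 (lmFit, contrasts.fit, eBayes with trend) on log2(CPM + 1), 2-sided, in 1 fit of 24 mice and 8 group means (16 residual degrees of freedom), with Benjamini-Hochberg adjustment over all genes within each comparison and a threshold of 0.05. SEs come from that fit, so every group is given one spread. The tests were planned for log2 CPM and counts; the log10 values were converted, and edgeR was not run. Other steps used Python 3.11.15 (pandas 2.3.3, numpy 2.4.6). The fit was tested on simulated data.

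Members and lists were chosen with earlier results of these data known. Named besides the 10 members are their 3 most similar genes by r, pathway genes past the threshold in either NZB day 21 comparison and the most abundant gene of a list; some of these are not reported here, and M6pr, Igf2r and Tfeb were added after their values were seen. Transcript lengths and exon overlaps are from GENCODE M21 (GRCm38), with the RefSeq-matched principal transcript. Alternatives were other scales, milk lists, pseudocounts, filters, fits, read columns and leaving out mice.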

Additional observations from a re-analysis of the deposited data

Results flagged for a closer look

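The genotypes differed in their change from day 14 to day 21, by a test of the difference itself, in 2 of 10 members on the milk-removed scale, where 3.83% of all genes were higher and 2.24% lower. For Ctsl the difference was 2.20 (log2, NZB minus C57; limma, adjusted p = 0.00313), and it was called in every setting that was run. For Ctsa it was 0.88 (adjusted p = 0.0433), and it was not called with trimmed mean scaling, limma voom or no filter, nor without any 1 of 8 mice. On the deposited scale the same test was passed by 9 members, all but Ctsc, where 74.5% of all genes were higher and 0.527% lower and the median of all genes was 1.38.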

How the results depend on the processing

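Over 60 member differences in 6 comparisons, 38 settings gave 1220 values. Of these, 1105 were counted as the same, 68 lost a call, 37 gained one and 10 changed sign with a call in either value. A sign change between 2 uncalled values was counted as the same. Ctsc in the interaction was such a case, at −1.42 on the milk-removed and 0.0115 on the deposited scale. All 10 came from the deposited scale: on day 8 in C57 Ctsc −0.54, Ctsh −1.86, Ctsl −1.74 and Ctsz −1.02; in NZB Ctsb −1.64, Ctsc −0.14, Ctsl −1.12 and Ctsz −1.32; Ctsc 0.059 from day 14 to 21 in NZB; and Ctsf 1.21 in the interaction. They follow from keeping milk transcripts in the total. Counts of members higher and lower on that scale were 0 and 9 on day 8 in each genotype, 9 and 0 for NZB day 21 against day 14 and against C57, 3 higher against non-lactating glands and 9 in the interaction. Trimmed mean scaling left 1 member lower on day 8 in each genotype, gave 3 higher on day 8 in NZB, and left 1 higher from day 14 to 21, and 1 higher and 1 lower in the interaction. For NZB day 8, 1 member was higher with 8 milk genes removed, with the compared groups alone (1 lower), with group weights and with no filter. Over all genes these settings gave, in that order, 2054, 1917, 2057 and 2362 higher, where the reported fit gave 2440. They gave 6556, 3697, 4379 and 5595 lower, where the reported fit gave 5366. The compared groups alone left 3 members higher for NZB day 21 against non-lactating glands. Over all genes that fit gave 1754 higher and 1125 lower, where the reported one gave 2801 and 2545. With no filter 2 members were higher from day 14 to 21 and 1 in the interaction, where 2360 and 466 of 25046 genes were. In the interaction voom left 1 member higher and group weights 1 lower, where 316 genes were higher and 426 lower. The reported fits gave 2657 genes higher from day 14 to 21, and 647 higher and 379 lower in the interaction. For these counts the cause was not tested. Leaving out 1 mouse gave 1 to 2 members higher on day 8 in each genotype, 2 to 4 higher from day 14 to 21 in NZB, and 1 to 2 higher and 0 to 1 lower in the interaction. The mice were fitted as unpaired, and whether the numbers in the titles pair them is not settled. No 2 groups had all 3 same-numbered correlations above 0.1. In C57 days 14 and 21 they were 0.47, 0.40 and 0.06, each best with its own number. Mice of other numbers there had a mean of −0.15. With these numbers as a replicate block 60 of 60 member results kept their call. That block is shared by all 8 groups, so it cannot take up a pairing of 2 groups alone. Block counts equalled the reported ones. edgeR's quasi-likelihood test and edgeR's TMM factors were planned and not run, as the deposited unit is log10; the trimmed mean, voom and the fit without 2 mice were chosen after seeing the data. With 3 mice a group and Ctsk at 2 to 21 CPM, small differences of low genes were not resolved.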
